A study of Mus musculus with 2 samples.

Results

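The transcripts behind the GR-1 epitope were examined in myeloid cells that had been selected with an antibody to it. GR-1 is the name of the mouse antigen seen by the antibody clone RB6-8C5, which binds Ly6G and also Ly6C. Both are small proteins with one LU domain that are held on the outer face of the plasma membrane by a glycosylphosphatidylinositol (GPI) anchor. Ly6g encodes Ly6G, the usual marker of mouse neutrophils, and Ly6c1 and Ly6c2 encode Ly6C, which is high on inflammatory monocytes and is also found on some T cells and on endothelium. Ly6a encodes Sca-1, a stem and progenitor cell antigen that interferon induces in many cells, Ly6e encodes a broadly expressed and interferon-inducible member, and Ly6i is a close relative of Ly6a. These 6 genes were taken by symbol out of the 28692 genes listed in the count matrices of both libraries, and all 6 were listed there.

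Tumors were grown from 4T1 cells, a BALB/c triple-negative mammary carcinoma line, in the mammary fat pad of female BALB/c mice of 8 to 10 weeks. Going by the labels, the library labelled 4T1p came from tumors of the parental line, which is resistant to anti-PD1. That labelled 4T1m would then come from a polyclonal line that responds, derived from the parental line with the mutagen MNNG. Whether the labels are right is open, as described below. Both groups had received anti-PD1 for 2 weeks, so no untreated tumor is compared here. GR-1+ cells were pulled out of dissociated tumors with magnetic beads and sequenced with a droplet 3′ method that counts unique molecular identifiers (UMIs), 1 library per tumor type. The labels call the cells myeloid and do not say how many mice were pooled.

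With 1 library per tumor type, no test between tumors is possible. Every interval below is a 95% interval (exact Poisson for a level, exact binomial for a share or for a ratio of 2 counts). It covers counting error only, not the variation between mice. For levels and ratios it treats every UMI as independent, so it also leaves out the spread between barcodes. Such an interval is too narrow where few barcodes hold most of the UMIs. Levels are UMIs of the gene per 1000000 UMIs of the group (CPM). Barcodes with 250 to 5000 genes, at most 27000 UMIs and at most 1 in 8 UMIs from mitochondrial genes were kept, 1128 of 1641 in the library labelled 4T1p and 2092 of 2749 in that labelled 4T1m, with medians of 2015 and 2739 UMIs per kept barcode. Over all barcodes of the deposited matrices the medians were 2066 UMIs in the library labelled 4T1p and 2763 in that labelled 4T1m. The study's text gives the same medians with the tumor names exchanged. The labels of the libraries may therefore be exchanged, which would turn every direction between libraries given here. The medians alone cannot settle it. Directions between the tumors that the study reports also bear on the labels, and they were not compared here. Each library is called by its label throughout. No barcode was shared between the libraries.

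The barcodes were clustered anew with every Ly6 gene left out of the genes that drive the clustering, so that no member could define a group. Of 11 clusters, 4 were neutrophil-like (253 barcodes in the library labelled 4T1p and 1023 in that labelled 4T1m), 4 were macrophage-like (619 and 697), 1 was B cell-like and 1 T cell-like (64 barcodes together). A further cluster of 564 barcodes with a median of 903.5 UMIs, led by Fabp5 and Lgals1, stayed unnamed. Its best marker list was that of macrophages, with 5 markers in over 25% of barcodes. Mean detection was 40.1% for that list and 7.71% for the neutrophil list. It fell to the depth rule given further on, in the library labelled 4T1m only, at a median of 905 UMIs against 2739 for the library. The macrophage-like barcodes were not the same mixture in both libraries. In the library labelled 4T1p most came from a cluster led by Cxcl9 and Ccl8 (247 barcodes) and one led by C6 and Ifnb1 (187), whereas in that labelled 4T1m the one led by Vcan and Ednrb held 341 of 697. The neutrophil-like mixture differed as well. Its cluster led by Mirt1 and Hdc held 104 of 253 and 281 of 1023 barcodes, 4T1p first, and that led by Slc2a3 and Steap4 held 33 and 255. The B cell-like and T cell-like barcodes depart from the label, since lymphocytes are not myeloid cells.

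All 6 members lie side by side on mouse chromosome 15 (GRCm38, chr15:74955051-75159126, a span of 204.1 kb in which they are the 6 protein-coding genes). Ly6e (plus strand, chr15:74955051-74959905) comes first, followed by Ly6i (minus, chr15:74979534-74983430), Ly6a (minus, chr15:74994877-74998031), Ly6c1 (minus, chr15:75044018-75048830), Ly6c2 (minus, chr15:75108158-75111970) and Ly6g (plus, chr15:75155240-75159126). Each of the main transcripts carries its coding sequence on 3 exons. The first 180 coding bases of the 3 genes behind the epitope are shown because they bear on how far the counts of these genes can be told apart. Capitals mark bases that differ from Ly6c2, and base 1 is the A of the start codon.
Ly6c2: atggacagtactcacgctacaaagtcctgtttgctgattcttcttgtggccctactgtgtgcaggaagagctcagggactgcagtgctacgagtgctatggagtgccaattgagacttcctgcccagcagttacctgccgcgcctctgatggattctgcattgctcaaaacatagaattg
Ly6c1: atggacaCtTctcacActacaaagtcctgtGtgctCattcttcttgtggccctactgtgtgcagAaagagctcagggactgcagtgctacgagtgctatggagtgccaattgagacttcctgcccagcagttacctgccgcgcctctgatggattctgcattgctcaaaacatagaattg
Ly6g: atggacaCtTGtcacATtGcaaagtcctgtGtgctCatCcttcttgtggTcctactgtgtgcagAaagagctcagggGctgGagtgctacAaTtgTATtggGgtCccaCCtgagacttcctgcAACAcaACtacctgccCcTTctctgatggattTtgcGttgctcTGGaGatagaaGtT
In this stretch Ly6c1 differed from Ly6c2 at 6 bases and Ly6g at 39. Over the whole coding sequence Ly6c1 and Ly6c2 were 97.7% identical, with 9 differences in 393 bases, whereas Ly6g was 79.6% identical to Ly6c1 and 77.4% to Ly6c2. Ly6a and Ly6i were 86.3% identical, and Ly6e stood apart at 49.7% to 52.3% with the other members. In the last 400 bases of the transcript, where a 3′ method reads, Ly6c1 and Ly6c2 shared 34 of 310 windows of 91 bases exactly, and the other 4 members shared no such window with another annotated gene. A read from a shared window cannot be given to either gene, so the levels of Ly6c1 and Ly6c2 are uncertain by that part, a limit that was not found for Ly6g, Ly6a, Ly6e and Ly6i. These are sequences of the reference strain C57BL/6J, and the effect of BALB/c differences on the counts was not tested.

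The antibody selected cells by surface protein, and most of the selected barcodes held no transcript of the epitope genes. At least 1 UMI of Ly6g, Ly6c1 or Ly6c2 was found in 13.8% of neutrophil-like barcodes of the library labelled 4T1p (9.83% to 18.7%) and in 14.7% of those labelled 4T1m (12.6% to 17.0%). Among macrophage-like barcodes the shares were 4.20% (2.76% to 6.09%) and 7.75% (5.87% to 9.99%). In neutrophil-like barcodes the interval of the library labelled 4T1m lay inside that of the library labelled 4T1p. Depth differed along with the macrophage-like shares, at a median of 2324 UMIs per barcode in the library labelled 4T1p and 9162 in that labelled 4T1m. After each barcode had been thinned to 1000 UMIs the macrophage-like shares were 2.17% (159 shallower barcodes left out) and 2.50% (57 left out), close to each other. Thinned to 500 UMIs they were 0.813% and 2.31%, so equal depth did not give 1 answer on this gap. At 1000 UMIs the shares of neutrophil-like barcodes were 8.70% (23 left out) and 8.32% (85 left out). UMIs of mRNA do not measure the protein on the surface, and a share of barcodes with a UMI is bounded by depth.

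Ly6g was found almost only in neutrophil-like barcodes, and the Ly6c genes in both classes. Of 1276 neutrophil-like barcodes, 113 held Ly6g alone, 51 held Ly6g with a Ly6c gene, 21 held a Ly6c gene alone and 1091 (85.5%) held neither. Of 1316 macrophage-like barcodes, 4 held Ly6g alone, 2 held both, 74 held a Ly6c gene alone and 1236 (93.9%) held neither. The unnamed cluster had no Ly6g UMI and 9 of its 564 barcodes held a Ly6c gene. Between clusters the share with any of the 3 genes ran from 63.7% in the neutrophil-like cluster led by Camp, Ngp and Ltf (56.3% to 70.7%) through 12.8% in the Vcan and Ednrb cluster to 0.298% in the Cxcl9 and Ccl8 cluster, where it was 1 of 336 barcodes at a median depth of 1286.5 UMIs.

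**Figure D1:**
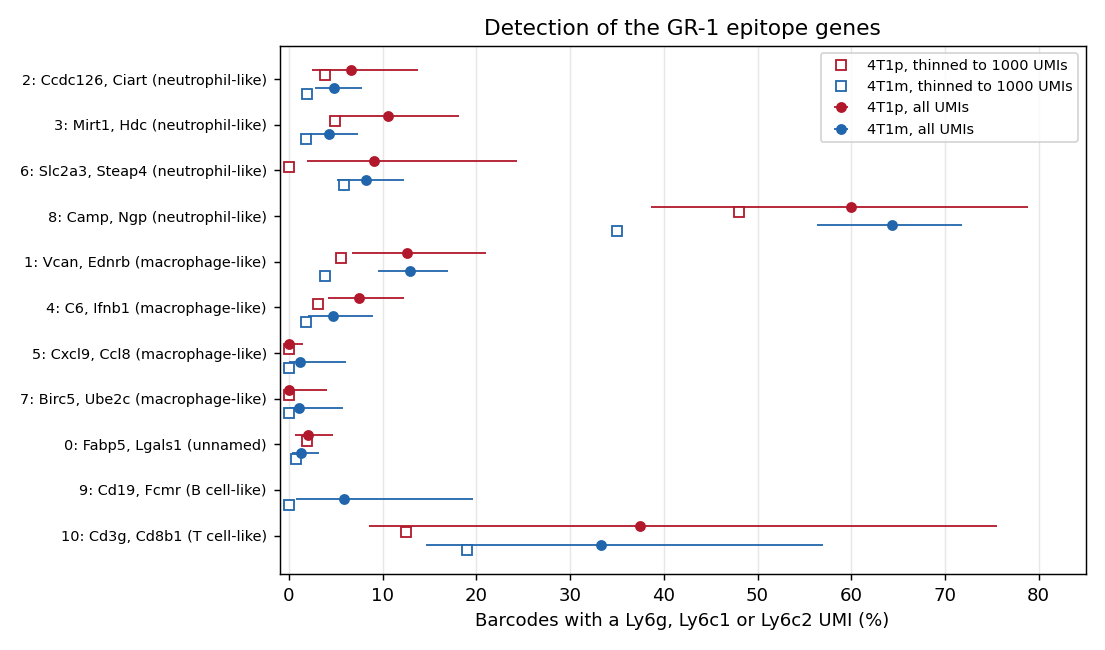
Percent of barcodes with at least 1 Ly6g, Ly6c1 or Ly6c2 UMI in each cluster, named by its 2 leading genes, with filled circles for all UMIs (bars are exact binomial 95% intervals) and open squares after thinning each barcode to 1000 UMIs; red is the library labelled 4T1p and blue that labelled 4T1m, and groups under 8 barcodes are not drawn. The Camp and Ngp cluster stood above the other clusters in both libraries, at 60.0% and 64.3%, and the T cell-like cluster, with 8 and 21 barcodes, had the next highest shares with wide intervals.

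Between macrophage-like and neutrophil-like barcodes, 5 members reached the 50 UMIs required in each library, and 3 of them were at least 2-fold apart in both. Ly6g was higher in neutrophil-like barcodes and Ly6a and Ly6e were higher in macrophage-like barcodes, while Ly6c1 and Ly6c2 lay within 2-fold. Ly6i did not reach the minimum. Over all 6833 genes tested in this way, 46.1% were higher in macrophage-like and 7.65% higher in neutrophil-like barcodes, so that 2 of 5 members on the macrophage side is near the share among all genes.

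Ly6g, the neutrophil arm, was close to absent outside neutrophil-like barcodes. Its level was 284 CPM (249 to 323) in neutrophil-like barcodes of the library labelled 4T1p, from 235 UMIs, and 225 CPM (209 to 243) in those labelled 4T1m, from 710 UMIs. In macrophage-like barcodes it was 0.240 CPM (1 UMI) and 0.907 CPM (6 UMIs). The log2 ratio of macrophage-like over neutrophil-like barcodes was -10.21 (-15.52 to -7.72) and -7.96 (-9.41 to -6.83). A Ly6g UMI was present in 12.9% of neutrophil-like barcodes (164 of 1276, median depth 2534 UMIs) and in 0.456% of macrophage-like barcodes (6 of 1316, median depth 5783.5 UMIs). None was found in 64 B cell-like and T cell-like barcodes at a median of 4321 UMIs. That allows a share of barcodes with a Ly6g UMI of up to about 4.69%, taken as 3 in 64 and not from the exact binomial interval. None was found in the 564 unnamed barcodes either, whose median of 903.5 UMIs is too low to say whether a given barcode expressed the gene. Summed over that cluster there were 0 Ly6g UMIs and 242 Ly6e UMIs. A Ly6g level like the 238 CPM of all neutrophil-like barcodes was thus not seen in the sum. The share in macrophage-like barcodes is the background against which the neutrophil-like share stands.

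Among the neutrophil-like barcodes themselves, Ly6g was concentrated in 1 cluster. The 182 barcodes led by Camp, Ngp and Ltf, genes of the secondary granules that neutrophil precursors make in the bone marrow, held 874 of the 952 Ly6g UMIs of all kept barcodes (91.8%). The level there was 992 CPM (864 to 1135) in the library labelled 4T1p, in 15 of 25 barcodes, and 640.5 CPM (593 to 691) in that labelled 4T1m, in 98 of 157. The other neutrophil-like clusters together were at 34.3 and 23.6 CPM. The log2 ratio of the Camp cluster over them was 4.85 (4.20 to 5.57) and 4.76 (4.35 to 5.21), so the concentration was of the same size in both libraries. By cluster, the order of levels over both libraries was Camp and Ngp (701 CPM), Slc2a3 and Steap4 (51.9 CPM, from 34.5), Ccdc126 and Ciart (25.6 CPM, 16.7 to 37.6) and Mirt1 and Hdc (14.5 CPM, 8.42 to 23.1), and the intervals of neighbours among the last 3 overlapped.

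The Camp cluster was not uniform, either for the genes that lead it or for Ly6g. Of its 182 barcodes, 51 held Camp, 82 held Ngp and 48 held Ltf. By comparison, 179 held the neutrophil marker Retnlg and 157 held the neutrophil marker Cxcr2. In the library labelled 4T1p its barcodes held a median of 2 Ly6g UMIs with quartiles of 0 and 13 and a highest barcode of 58, and in that labelled 4T1m a median of 1, quartiles of 0 and 5 and a highest of 37. The single barcode of 58 UMIs held 27.1% of the cluster's Ly6g UMIs in the library labelled 4T1p, and without it the level was 794 CPM. The library ratio depended on it as well: 4T1m over 4T1p in all neutrophil-like barcodes was -0.33 on the log2 scale (-0.55 to -0.11) with all barcodes and -0.03 with the highest barcode of each group left out.

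Barcodes with more Ly6g also held more of the granule genes. The 182 barcodes were split by their Ly6g UMIs into 69 with none, 83 with 1 to 9 and 30 with 10 or more, whose median depths were 4471, 6034 and 13698 UMIs. Camp, the cathelicidin precursor, was at 472, 2510.4 and 16999 CPM across these groups. Ngp, neutrophilic granule protein, was at 801, 4843 and 24600.5 CPM, Ltf (lactoferrin) at 459.7, 1191 and 6990.5 CPM and Cd177, a neutrophil surface partner of proteinase 3, at 124, 377 and 803 CPM. Camp was found in 2 of 69, 23 of 83 and 26 of 30 barcodes, Ngp in 10, 43 and 29, and Ltf in 2, 22 and 24. The levels of Camp and Ltf in the group without Ly6g thus came from 2 barcodes each. The whole list of 10 immature neutrophil genes summed to 4948, 14749.7 and 64068 CPM, while the list of 10 mature and tumor neutrophil genes had no such order, at 26817, 27305 and 20545 CPM. Genes of the latter list diverged. The order was the opposite for Csf1, a macrophage growth factor, at 332, 159 and 50.5 CPM. The same held for the chemokine gene Ccl3 at 3392, 2160.1 and 1553 CPM and for Cxcr2 at 500, 464 and 260 CPM. In contrast Mmp8 was at 317, 646 and 745 CPM and Retnlg at 8774, 15711 and 14557 CPM, both lowest without Ly6g. Both of the other epitope genes followed Ly6g, with Ly6c2 at 6.21, 45.4 and 106 CPM and Ly6c1 at 3.11, 28.4 and 55.6 CPM. Ly6e also went up, at 24.8 CPM (10.7 to 49.0), 41.6 CPM (26.1 to 63.1) and 65.7 CPM (42.9 to 96.2), with overlapping intervals. As depth moved with the split, these CPM values compare groups of unequal RNA content, and the part of depth in them was not tested.

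**Figure D2:**
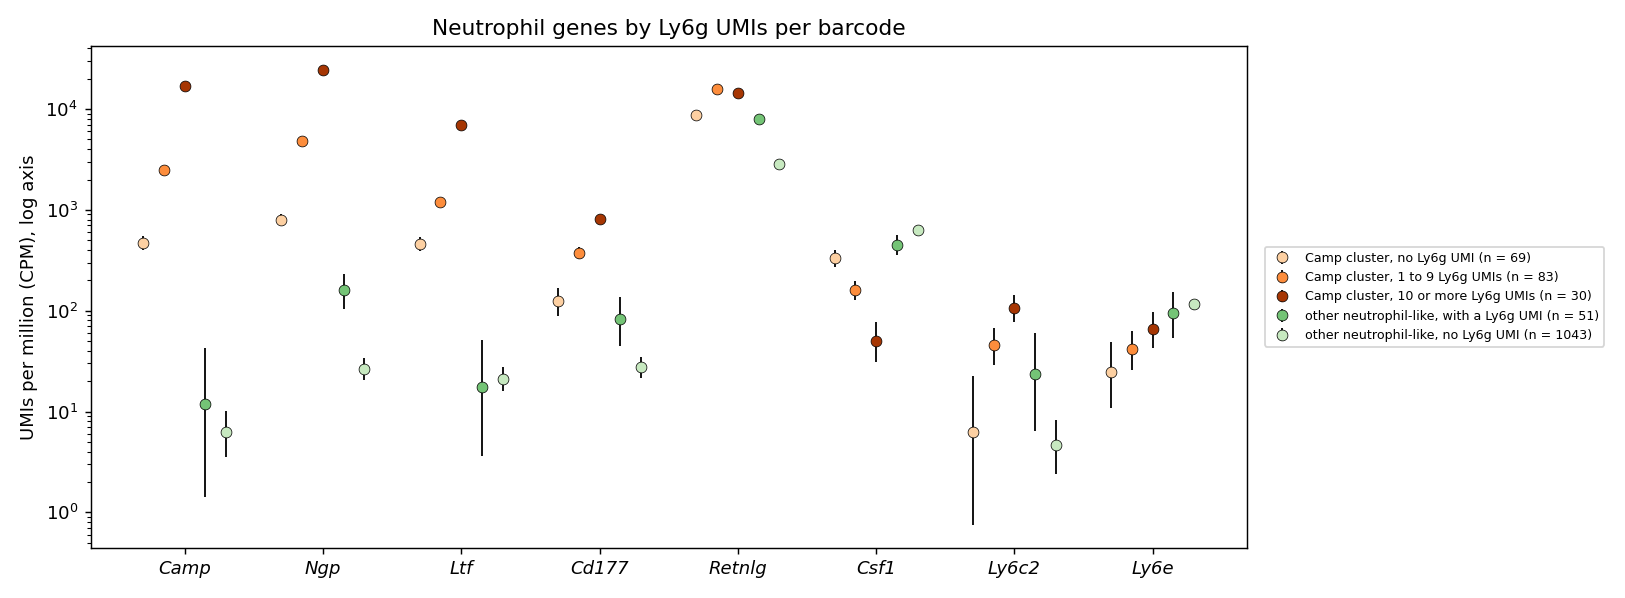
Level in CPM (log axis) of 8 genes in neutrophil-like barcodes grouped by their Ly6g UMIs, with the Camp cluster in 3 shades of orange and the other neutrophil-like clusters in green; bars are exact Poisson 95% intervals and n is the number of barcodes. Camp, Ngp, Ltf, Cd177 and Ly6c2 stepped up with Ly6g inside the Camp cluster while Csf1 stepped down from 332 to 50.5 CPM. Ly6e stepped up as well, with overlapping intervals.

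Outside the Camp cluster, 51 neutrophil-like barcodes held a Ly6g UMI and 1043 did not. Those with one held more Retnlg, a resistin-like gene of circulating neutrophils (8046 against 2854 CPM), more Lcn2 (1822 against 1045 CPM), more Mmp8, the neutrophil collagenase (382 against 179 CPM), and more Cxcr2, the receptor by which neutrophils leave the marrow and home to chemokines (488 against 344 CPM). Other genes of the mature and tumor neutrophil list were lower in them, with Csf1 at 453 against 629.7 CPM and Ccl3 at 6677 against 8452 CPM, and the whole list was at 30181 against 28810.2 CPM. Camp was low in both, at 11.8 CPM (2 UMIs) and 6.25 CPM (16 UMIs), and Ltf was at 17.6 CPM (3 UMIs) and 21.1 CPM. Ngp was higher in those with a Ly6g UMI (159 against 26.6 CPM), as was Cd177 (82.3 against 27.3 CPM). Each of these 2 higher values came from 5 barcodes. The immature neutrophil list, which holds Lcn2, summed to 2169 against 1240 CPM. Median depths of the barcodes with and without a Ly6g UMI were 3108 and 2246 UMIs.

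Over the 18 cluster-by-library groups of at least 30 barcodes, the genes whose level followed Ly6g most closely were Cd177 (Pearson r = 0.95), Ngp (0.92), Stfa3 (0.91), Ltf (0.88) and BC117090 (0.88), out of 6417 genes with at least 200 UMIs, on log2(CPM + 10). The groups share 2 libraries and the Camp cluster sets the high end, so these are descriptions. Cd177 is itself a member of the wider Ly6 and uPAR family, and it shared the pattern of Ly6g across classes, with 161 CPM in neutrophil-like and 1.02 CPM in macrophage-like barcodes and log2 ratios of the Camp cluster over other neutrophil-like barcodes of 4.01 and 3.84.

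Ly6c1 and Ly6c2, the genes of Ly6C, were low in both main classes. Ly6c2 was at 25.4 CPM (15.7 to 38.8) and 20.01 CPM (15.4 to 25.6) in the neutrophil-like class of 4T1p and 4T1m, and at 31.4 CPM (26.3 to 37.3) and 31.9 CPM (27.7 to 36.5) in macrophage-like barcodes. Ly6c1 was at 18.1 CPM (10.1 to 29.9) and 16.5 CPM (12.3 to 21.7) in the former and at 16.1 CPM (67 UMIs) and 21.3 CPM (141 UMIs) in the latter. The log2 ratio of macrophage-like over neutrophil-like barcodes was 0.31 and 0.67 for Ly6c2 and -0.17 and 0.37 for Ly6c1, all within 2-fold. Of these only the Ly6c2 ratio of the library labelled 4T1m (0.26 to 1.10) had a counting interval clear of 0.

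In neutrophil-like barcodes the Ly6c transcripts sat with Ly6g. Of 47 barcodes with Ly6c1, 33 also held Ly6g (70.2%), and of 46 with Ly6c2, 35 did (76.1%), against 12.9% with Ly6g among all neutrophil-like barcodes. Barcodes with Ly6c2 were deep, with a median of 9282 UMIs against 2480.5 in those without. Over both libraries Ly6c2 was at 54.6 CPM (42.4 to 69.2) in the Camp cluster. In the macrophage-like Vcan and Ednrb and C6 and Ifnb1 clusters it was at 41.5 and 27.7 CPM. The Camp cluster over the other neutrophil-like clusters gave a log2 ratio for Ly6c2 of 3.18 (1.67 to 4.98) and 3.28 (2.32 to 4.37), and for Ly6c1 of 0.92 (-0.85 to 2.57) and 1.72 (0.87 to 2.60), of which the 4T1p ratios of both genes rest on fewer than 50 UMIs.

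Among macrophage-like barcodes, Ly6c2 was found in the Vcan and Ednrb cluster and the C6 and Ifnb1 cluster and hardly in the others. In the Vcan and Ednrb cluster it was at 25.3 CPM (16.5 to 37.0) in the library labelled 4T1p and 45.9 CPM (39.3 to 53.2) in that labelled 4T1m. In the C6 and Ifnb1 cluster the order was the other way, 44.6 CPM (36.4 to 53.9) and 9.91 CPM (22 UMIs). The Cxcl9 and Ccl8 cluster held 1 Ly6c2 UMI and no Ly6c1 UMI in 336 barcodes, and the dividing cluster led by Birc5 and Ube2c held 13 Ly6c2 UMIs, all in 1 barcode. The macrophage-like clusters with low Ly6c2 were also shallow, at medians of 1286.5 and 1527 UMIs.

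The C6 and Ifnb1 value rested on few barcodes. In the library labelled 4T1p the 2 highest barcodes, of 41 and 26 UMIs, held 67 of the 105 Ly6c2 UMIs of that cluster. Over all macrophage-like barcodes of that library, leaving these 2 out took Ly6c2 from 31.4 to 15.4 CPM, and leaving out the 2 highest for Ly6c1 took it from 16.1 to 6.76 CPM. The library ratio of Ly6c1 in macrophage-like barcodes, 0.41 on the log2 scale (-0.02 to 0.85), was 0.99 without the highest barcode of each group and -0.22 with the unnamed cluster counted as macrophage-like, so it has no stable direction. That of Ly6c2 was 0.02 (-0.30 to 0.35).

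Barcodes with Ly6c2 held more of some monocyte genes than their cluster mates, and less of others. In the Vcan and Ednrb cluster, 47 barcodes with Ly6c2 and 389 without had close median depths of 11044 and 10408 UMIs. Those with it held 7.93-fold more Plac8, 8.68-fold more Ms4a4c and 6.44-fold more Hp (haptoglobin), all of which are high in classical monocytes. Ccr2, the receptor that draws monocytes out of the marrow, was at 770.2 against 334 CPM and Vcan, a proteoglycan gene of monocytes, at 270.1 against 118 CPM. Fn1 (fibronectin) and F13a1 (a coagulation factor subunit) went the other way, at 1946 against 3917 CPM and 439 against 620.0 CPM. The 9 genes of the recruited monocyte list from which these come summed to 5747 against 5299 CPM, a ratio of 1.08, so the list as a whole hardly differed while its members diverged. The 10 macrophage markers (such as Apoe and C1qa) were lower in sum, at 4601 against 12113 CPM. The 10 neutrophil markers were higher in barcodes with Ly6c2 in the library labelled 4T1p (log2 ratio 0.65) and lower in that labelled 4T1m (-1.39). The directions of Plac8, Ms4a4c, Hp, Ccr2, Vcan, Fn1 and F13a1 were the same in both libraries, from 10 and 37 barcodes with Ly6c2.

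In the C6 and Ifnb1 cluster, 20 barcodes with Ly6c2 stood against 339 without. Over both libraries Plac8 was 12.6-fold higher in them, Hp 5.91-fold, Ms4a4c 2.90-fold and Ccr2 1.51-fold. The barcodes with Ly6c2 were 14 in 4T1p and 6 in 4T1m, and the size differed between the libraries. Plac8 was 6.93-fold higher in 4T1p and 35.4-fold in 4T1m. Ccr2 was 1.94-fold and 1.16-fold higher, the latter with a log2 interval that held 0 (-0.26 to 0.65). Over both libraries F13a1 was 2.32-fold lower in barcodes with Ly6c2 and Fn1 was at 1809 against 2171 CPM, and the whole recruited monocyte list was at 4937 against 3098 CPM. The macrophage markers summed to 16658 against 30024 CPM. The 10 neutrophil markers were higher there as well, at 4274 against 1213 CPM, a measured fact whose part in the values of these 20 barcodes was not tested. Ly6e was 4.80-fold higher in barcodes with Ly6c2 in the Vcan and Ednrb cluster and 3.31-fold higher in the C6 and Ifnb1 cluster, whereas a list of interferon-stimulated genes, described further on, gave log2 ratios of 0.59 and 0.16. In the latter cluster the direction of that list differed between the libraries, at -0.19 in 4T1p and 0.77 in 4T1m.

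Ly6c1 and Ly6c2 were mostly found together in macrophage-like barcodes and T cell-like barcodes. Of 50 macrophage-like barcodes with Ly6c1, 43 also held Ly6c2 (86.0%), which is 62.3% of the 69 with Ly6c2. The T cell-like cluster held 37 Ly6c1 UMIs in 8 of 29 barcodes and 45 Ly6c2 UMIs in 9, or 197 CPM (138 to 271) and 239 CPM (174 to 320), while the B cell-like cluster held 2 Ly6c1 UMIs and no Ly6c2 UMI in 35 barcodes. Whether reads of either gene were in part counted for the other was not tested.

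A small set of barcodes broke the pairing. In 5 barcodes at least 3 of the 5 endothelial markers Pecam1, Cdh5, Kdr, Cldn5 and Emcn were detected (4 in the library labelled 4T1p and 1 in that labelled 4T1m). They held 55 Ly6c1 UMIs in 4 barcodes (1297 CPM) and not 1 Ly6c2 UMI. They also held 28 Ly6a UMIs (660.5 CPM) and 66 of the 69 UMIs of Gpihbp1, a GPI-anchored relative of the Ly6 genes that carries lipoprotein lipase across capillary endothelium. Of the 5, 3 lay in the unnamed cluster, 1 in the T cell-like and 1 in a macrophage-like cluster, and 2 held a Ptprc (CD45) UMI. They set the Ly6c1 level of the unnamed cluster in the library labelled 4T1p: over both libraries that cluster had 44.6 CPM with them and 9.66 CPM without. In the T cell-like cluster Ly6c1 was at 108 CPM and Ly6c2 at 255 CPM without the 1 barcode. The absence of Ly6c2 depended on the cut. With at least 2 endothelial markers there were 20 barcodes, 14 of them macrophage-like. They held 66 Ly6c1 UMIs in 6 barcodes and 15 Ly6c2 UMIs in 2.

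**Figure D3:**
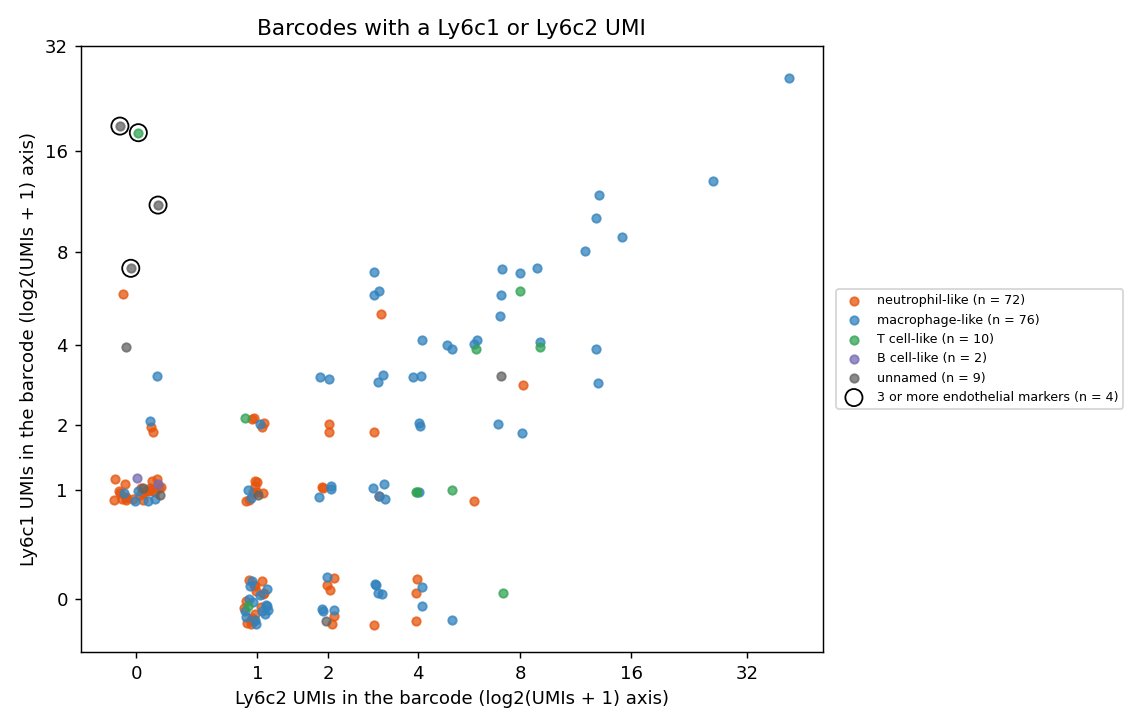
Ly6c2 UMIs (horizontal) against Ly6c1 UMIs (vertical) in each barcode that held either, both on log2(UMIs + 1) axes with a small random offset so that equal counts do not overlap; colour gives the class, n counts barcodes, and black rings mark barcodes with at least 3 endothelial markers. Macrophage-like barcodes with many UMIs held both genes, whereas the 4 ringed barcodes held Ly6c1 with no Ly6c2.

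Over the same 18 groups, Ly6c1 and Ly6c2 followed each other with r = 0.46. The genes closest to Ly6c2 were Phlda1 (0.79), Pofut2 (0.74), Add1 (0.74), Degs1 (0.73) and Itgb2 (0.73), and the summed recruited monocyte list gave 0.68. Those closest to Ly6c1 were Pqlc1 (0.76), Fabp4 (0.62), Mul1 (0.62), Coro2a (0.61) and Cd36 (0.60). Ly6c1 had 361 UMIs and Ly6c2 had 481. At these counts correlations of this size are no finding for either gene.

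Ly6a, which encodes Sca-1, was a macrophage-side gene with a large gap between the libraries. It was at 48.7 CPM (42.2 to 55.9) in macrophage-like barcodes of the library labelled 4T1p and 7.56 CPM (5.61 to 9.97) in those labelled 4T1m. In neutrophil-like barcodes there were 4 and 2 UMIs, or 4.83 CPM (1.32 to 12.4) and 0.635 CPM (0.0769 to 2.29). The log2 ratio of macrophage-like over neutrophil-like barcodes was 3.33 (1.95 to 5.22) and 3.57 (1.64 to 6.66), so the ratio between classes was of like size in both libraries. The Camp cluster, with 874 Ly6g UMIs, held no Ly6a UMI in 182 barcodes, and at the low level of Ly6a in the class this depth cannot show a difference from the other neutrophil-like clusters.

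Between libraries, Ly6a in macrophage-like barcodes was 6.44-fold lower in that labelled 4T1m, a log2 ratio of -2.69 (-3.16 to -2.24). Within the C6 and Ifnb1 cluster, with 187 and 172 barcodes, it was at 70.4 CPM (60.1 to 82.0) and 18.0 CPM (12.9 to 24.5). The log2 ratio there was -1.97 (-2.50 to -1.46), and without the 2 highest barcodes of each library the levels were 44.2 and 9.11 CPM. In the Vcan and Ednrb cluster it was at 11.7 CPM (12 UMIs) and 1.57 CPM (6 UMIs), and in the Birc5 and Ube2c cluster at 49.7 CPM (14 UMIs) and 11.4 CPM (4 UMIs). Ly6a was found in few barcodes, 43 of 619 and 17 of 697, and 2 barcodes held 63 of the 203 UMIs in the library labelled 4T1p, without which the level was 33.8 CPM. The T cell-like cluster had 99 Ly6a UMIs, of which 66 lay in 1 barcode, so its level was 526 CPM with that barcode and 199 CPM without it.

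Ly6e was the member found in the most barcodes, 993 of 3220. In macrophage-like barcodes its level was 500.3 CPM (479 to 522) in the library labelled 4T1p and 237 CPM (225 to 249) in that labelled 4T1m, and it was present in 57.7% and 44.9% of them. In neutrophil-like barcodes it was at 207 CPM (177 to 240.1) and 62.2 CPM (53.8 to 71.6), in 30.8% and 10.8%. After thinning to 1000 UMIs these shares were 34.3% and 15.2% in macrophage-like and 18.3% and 5.12% in neutrophil-like barcodes, so the order of the libraries held at equal depth. Macrophage-like over neutrophil-like barcodes gave a log2 ratio of 1.28 (1.05 to 1.51) and 1.93 (1.71 to 2.15).

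Ly6e was lower in the library labelled 4T1m in both classes. In neutrophil-like barcodes it was 3.32-fold lower in the library labelled 4T1m (log2 ratio -1.73, -2.03 to -1.43) and was the 1 of 4 members with 50 UMIs that lay 2-fold or more apart. Of 4494 genes tested there, 7.21% were at least 2-fold higher in the library labelled 4T1m and 3.18% higher in that labelled 4T1p. In macrophage-like barcodes Ly6e was 2.11-fold lower in the library labelled 4T1m (log2 ratio -1.08, -1.17 to -0.98). Here Ly6a and Ly6e were the 2 of 5 members past 2-fold, both on the 4T1p side, against 7.5% of 8815 genes on the 4T1m side and 1.99% on the 4T1p side. The Ly6e value lay close to the threshold and was -0.80 with at most 5% mitochondrial UMIs. No member with 50 UMIs was at least 2-fold higher in the library labelled 4T1m in either class.

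**Figure D4:**
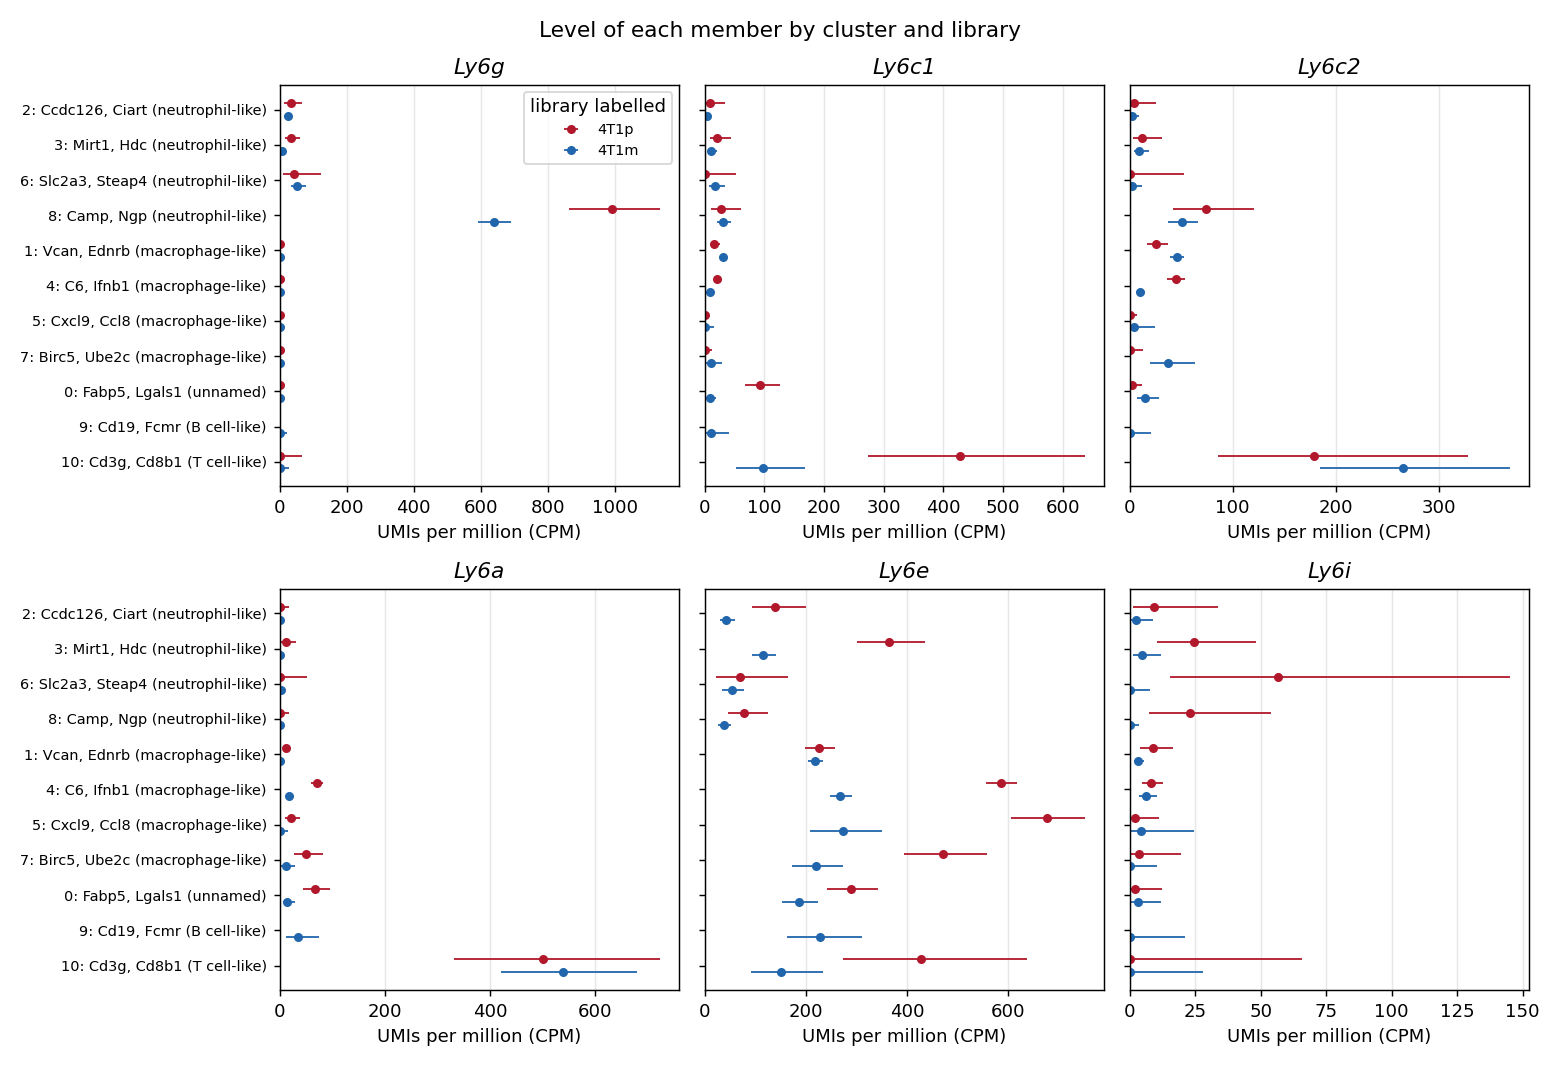
Level of each member in CPM by cluster, named by its 2 leading genes, with red for the library labelled 4T1p and blue for that labelled 4T1m, each panel on its own linear axis from 0; bars are exact Poisson 95% intervals and groups under 8 barcodes are not drawn. Ly6g stood out in the Camp and Ngp cluster at 992 and 640.5 CPM, the T cell-like cluster led for Ly6c1 (in 4T1p with 18 of 24 UMIs in 1 barcode with endothelial markers), Ly6c2 and Ly6a, and Ly6e was higher in red in most clusters.

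The gap in Ly6e was not the same in every cluster. The log2 ratio of 4T1m over 4T1p was -1.72 (-2.47 to -0.96) in the Ccdc126 and Ciart cluster and -1.66 (-2.06 to -1.26) in the Mirt1 and Hdc cluster, both neutrophil-like. Of the remaining neutrophil-like clusters, the Camp cluster was at -1.06 and the Slc2a3 and Steap4 cluster at -0.41 (-1.82 to 1.33). The pooled neutrophil-like ratio of -1.73 lay below that of each of its clusters. The part of their unequal mixture in it was not tested. The unnamed cluster was at -0.63 (-1.01 to -0.26). Among macrophage-like clusters the ratio was -1.31 (-1.73 to -0.92) in the Cxcl9 and Ccl8, -1.13 (-1.27 to -0.99) in the C6 and Ifnb1 and -1.11 (-1.53 to -0.69) in the Birc5 and Ube2c cluster. In the Vcan and Ednrb cluster both libraries were level, at 226 CPM (198 to 257) and 218 CPM (204 to 234). The log2 ratio there was -0.05 (-0.26 to 0.16). By counting error alone, the interval of that cluster lay apart from those of the other 3 macrophage-like clusters.

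As Ly6e is interferon-inducible, a list of 16 interferon-stimulated genes (such as Isg15, Rsad2 and Irf7) is given beside it. In neutrophil-like barcodes the list summed to 5549 CPM in the library labelled 4T1p and 1578 CPM in that labelled 4T1m, a log2 ratio of -1.81 (-1.87 to -1.76), and 13 of 15 tested genes were at least 2-fold higher in the former and 0 in the latter. In macrophage-like barcodes the list gave -0.45 (-0.48 to -0.41), with 5 of 16 genes (Ifit3, Irf7, Ifi47, Zbp1 and Bst2) higher on the 4T1p side and 1 (Cmpk2) on the 4T1m side. List and gene lay at like values in the Ccdc126 and Ciart and the Mirt1 and Hdc clusters. In the Camp cluster the list was at -0.43, inside the wide interval of Ly6e (-1.06, -1.91 to -0.14). In 2 macrophage-like clusters they lay apart. In the C6 and Ifnb1 cluster the list was level (-0.02, -0.07 to 0.02) where Ly6e was at -1.13. In the Vcan and Ednrb cluster the list was at -0.45 (-0.52 to -0.38) where Ly6e was level. The sum does not stand for each of its genes. Bst2, which is in the list, was at -1.22 (-1.38 to -1.05) in the former cluster and -0.93 (-1.17 to -0.69) in the latter. The other list genes are not given by cluster here. The part of interferon in the Ly6e values was not tested.

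**Figure D5:**
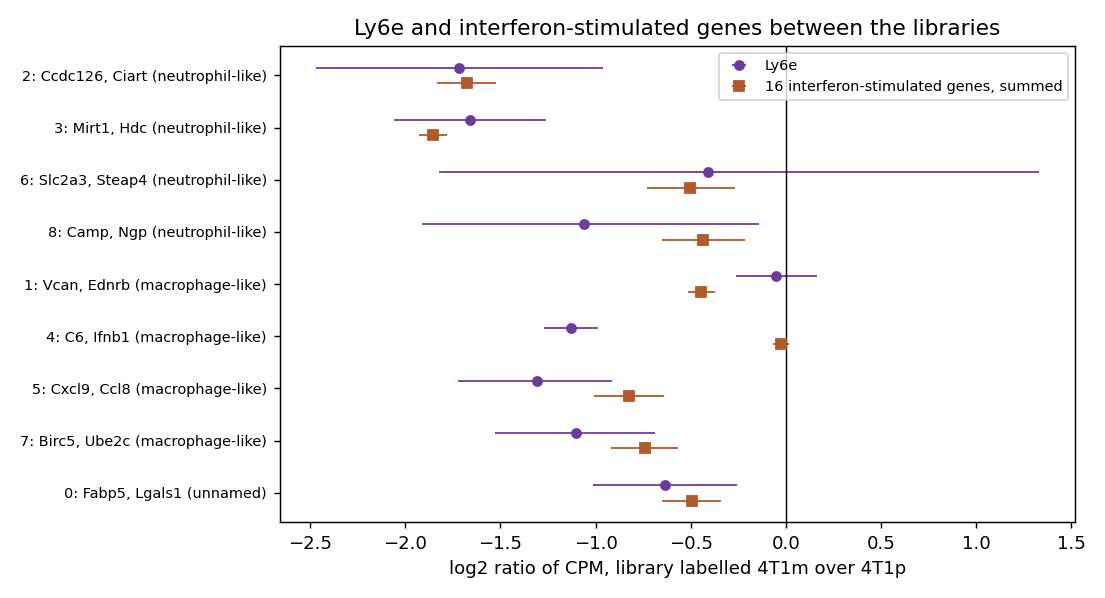
Log2 ratio of CPM in the library labelled 4T1m over that labelled 4T1p, by cluster, for Ly6e (purple circles) and for the sum of 16 interferon-stimulated genes (brown squares), with 95% counting intervals and a line at equal levels. In the Ccdc126 and Ciart and the Mirt1 and Hdc clusters both lay between -1.85 and -1.66, whereas in the C6 and Ifnb1 cluster Ly6e was at -1.13 and the list at -0.02.

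Over the 18 groups, the genes that followed Ly6e most closely were Psmb10 (r = 0.92), Bst2 (0.90), H2-K1 (0.90), H2-T22 (0.90) and B2m (0.88). Psmb10 is a subunit of the immunoproteasome, Bst2 (tetherin) a GPI-anchored antiviral protein, and H2-K1, H2-T22 and B2m belong to MHC class I. Those closest to Ly6a were Tapbpl (0.82), Ift22 (0.82), H2-T22 (0.81), Wbscr22 (0.81) and Lyl1 (0.80). Ly6a and Ly6e followed each other with r = 0.73. The summed interferon-stimulated list gave only 0.37 with Ly6e and 0.08 with Ly6a. Ly6a had only 403 UMIs in 89 barcodes, so its correlations are descriptions. In contrast Ly6g gave -0.73 with Ly6e and -0.54 with Ly6a. Macrophage-like barcodes had 339 CPM of Ly6e and 0.649 CPM of Ly6g, against 92.3 and 238 CPM in neutrophil-like barcodes. Among the latter, the Camp cluster had 44.9 CPM of Ly6e against 114 CPM in the other clusters. The part of each contrast in these correlations was not tested.

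Ly6i was the rarest member, with 85 UMIs in 55 barcodes. Its level was 23.0 CPM (19 UMIs) and 1.91 CPM (6 UMIs) in neutrophil-like barcodes and 7.20 CPM (30 UMIs) and 4.08 CPM (27 UMIs) in macrophage-like barcodes, 4T1p first. The neutrophil-like ratio of 4T1m over 4T1p was -3.59 on the log2 scale (-5.20 to -2.21). Its counting interval lay far from 0, but the ratio fell short of the 50 UMIs required. Of 35 macrophage-like barcodes with Ly6i, 34 also held Ly6e (97.1%), where 50.9% of all macrophage-like barcodes held Ly6e. Barcodes with Ly6e were the deeper ones, at a median of 9946 UMIs against 2248.

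The wider Ly6 and uPAR family had few transcripts in these cells. Of 33 further family genes, 29 were listed and 3 reached 50 UMIs, which were Plaur, Cd177 and Gpihbp1. Plaur, the urokinase receptor, was at 883 CPM in neutrophil-like and 294 CPM in macrophage-like barcodes, with log2 ratios of macrophage-like over neutrophil-like barcodes of -2.05 (-2.18 to -1.93) and -1.41 (-1.50 to -1.33). Plaur thus lay on the neutrophil side like Ly6g and Cd177, but it was spread over the class, as the Camp cluster gave -0.30 and -0.16 against the other neutrophil-like clusters. Of 27 genes that build and attach the GPI anchor of these proteins, 13 were tested between the classes. Among them Pigk, Pigp, Pigs, Pigt and Dpm3 (5) were at least 2-fold higher in macrophage-like barcodes and Piga (1), whose product starts anchor synthesis, was higher in neutrophil-like barcodes, to be read against the 46.1% and 7.65% of all genes. Between the libraries Pgap1, higher in the library labelled 4T1m, was the 1 gene of the list at least 2-fold apart, among 19 tested in macrophage-like and 6 in neutrophil-like barcodes.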

How the data were processed

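Droplet 3′ single-cell RNA-seq of GR-1+ cells from 4T1p and 4T1m tumors was analysed, 1 library each. Per the labels, the authors used Cell Ranger with mm10, and the deposited matrices hold raw UMI counts per gene and barcode after cell calling. The study's methods name the GRCm38 build with an Ensembl annotation, and the Cell Ranger version they give differs from that in the matrix headers. The read length is not given in the sources used here, and 91 bases was taken for the shared windows. From these counts, barcodes were kept by the limits given above on genes, UMIs and mitochondrial share. Doublets were kept, and an alternative removed the 13 and 44 barcodes ranked highest by Scrublet, 1% per 1000 barcodes. Gm42418 and AY036118, which take up ribosomal RNA, were left out of the totals. Both libraries were merged and clustered (SCTransform, 3000 variable genes, 11 principal components, Louvain at resolution 0.8). A cluster took the name of the marker list with the highest mean detection, given at least 3 markers in over 25% of its barcodes, and stayed unnamed if its median depth in a library, times 3, was below the library's own with none of those markers among its 10 leading genes, or if another list held more of those 10. Clusters and classes therefore rest on rebuilt names. A gene entered a ratio with at least 50 UMIs in both groups together and counted as apart at 2-fold. The interval code was tested on simulated Poisson counts without spread between barcodes, which is the model the intervals assume. That test shows nothing on the spread between barcodes in these data. Transcripts were read from GRCm38 with its gene annotation. Software was R 4.3.3, Seurat 5.3.0, sctransform 0.4.2, Python 3.11.15, numpy 2.4.6, scipy 1.17.1, pandas 2.3.3 and scanpy 1.11.5.

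Genes named were the 6 members, family genes with at least 50 UMIs, up to 5 genes that led a cluster, genes of the lists and, per member with at least 200 UMIs, the 5 most correlated genes over groups of at least 30 barcodes. Genes set beside Ly6g in the Camp cluster come from the lists. The members and lists were chosen with earlier results of these data known, and nothing here is independent support for those results. Alternatives changed filters, clustering, depth, the UMIs that count as detection, the minimum of UMIs, the fold and the totals.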

Additional observations from a re-analysis of the deposited data

How the results depend on the processing

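No paired analysis was possible because each tumor type has 1 library, so the groups share fewer than 2 replicate numbers. Of 84 alternative values for the main shares and counts, 64 were taken as unmoved. These were shares inside the counting interval and counts that changed by at most 1.5 times. The share of barcodes with a Ly6g, Ly6c1 or Ly6c2 UMI depended mostly on depth. With 1000 UMIs per barcode it was 8.70% and 8.32% in neutrophil-like and 2.17% and 2.50% in macrophage-like barcodes (4T1p, then 4T1m), with 500 UMIs 3.95%, 3.92%, 0.813% and 2.31%, and with at least 2 UMIs required 8.70%, 9.29% and 2.58% in the first 3. At most 5% mitochondrial UMIs gave 17.9% in 4T1m neutrophil-like barcodes, and a Ptprc UMI required gave 7.25% in 4T1p macrophage-like barcodes. In 4T1m macrophage-like barcodes the share was 5.63% with doublets removed, 5.67% with no upper limits, 5.72% at resolution 0.4, 5.71% with Ly6 genes kept for clustering and 5.72% with the unnamed cluster counted in; in these settings the low-RNA barcodes take the macrophage-like name. The count of members apart between classes was 2 with at most 5% mitochondrial UMIs and 3 in the other settings. Members apart between libraries became 2 in neutrophil-like barcodes with a minimum of 20 UMIs. In macrophage-like barcodes they became 1 with at most 5% mitochondrial UMIs and 3 at 1.5-fold. The cause was not tested. Counting the unnamed cluster in and leaving out the highest barcode were chosen after seeing the data. Of 164 values for single members, 17 moved, among them Ly6c1 between the libraries in macrophage-like barcodes, from -0.45 to 0.99, and Ly6g between the classes, -8.52 over both libraries and -7.18 with no upper limits. Depth limits what absence of a UMI shows: in the 64 lymphocyte-like barcodes no Ly6g UMI allows a share with such a UMI of up to about 4.69%, taken as 3 in 64.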

Other observations

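The barcodes left out by the limits also held member transcripts. Those over the mitochondrial limit (443 in the library labelled 4T1p and 560 in that labelled 4T1m) had Ly6g at 42.2 CPM (31.4 to 55.5) and 29.4 CPM (21.9 to 38.7), and Ly6e at 171 CPM (149 to 196) and 78.5 CPM (65.8 to 92.8). Those over the gene or UMI limit (57 and 59) had Ly6a at 111 CPM (97.4 to 126) and 17.6 CPM (12.4 to 24.3), Ly6e at 493 CPM (463 to 524) and 128 CPM (113 to 144) and Ly6c1 at 20.8 CPM (15.1 to 27.9) and 2.86 CPM (1.05 to 6.22). Ly6g had 0 and 18 UMIs there. In both sets Ly6a and Ly6e were higher in the library labelled 4T1p. For Ly6a over the mitochondrial limit this rests on 15 UMIs in that library and 3 in that labelled 4T1m. These left-out barcodes were not sorted into classes, so their levels cannot be set beside those of a single class. With no upper limits on genes and UMIs, a cluster among 13 took the name of tumor epithelial cells.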
